A study of Mus musculus with 4 samples.

Results

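The genes described here encode the subunits of AMP-activated protein kinase (AMPK) and its activating kinase, in RNA from mouse hippocampus. They are the catalytic α subunit genes Prkaa1 and Prkaa2, the scaffolding β subunit genes Prkab1 and Prkab2, the regulatory γ subunit genes Prkag1, Prkag2 and Prkag3, and Stk11, which encodes Lkb1. Each was found by its symbol in the array annotation, and the brightest probe set of a gene, by the mean of the 4 arrays, was to stand for it. Each of the 8 genes has 1 probe set, so the 8 genes, of 30921 that the annotation names, are read by 8 of 33793 probe sets. The annotation marks all 8 as unique, that is, not expected to cross-hybridize.

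AMPK is a heterotrimer that senses the energy state of the cell. AMP and ADP bind to the γ subunit, the β subunit holds the complex together and binds glycogen, and the α subunit phosphorylates targets that shut down synthesis of lipid and protein and turn on fuel use and autophagy. Full activity needs phosphorylation of the activation loop of α, by Lkb1 bound to a Strad pseudokinase and an MO25 scaffold, or by the calcium-dependent kinase Camkk2, which is prominent in neurons. IPMK, inositol polyphosphate multikinase, phosphorylates inositol phosphates and is known to associate with AMPK signalling.

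The arrays labelled IPMK cKO came from male mice at postnatal day 90 of the genotype Ipmk f/f;CaMKII-Cre, in which Cre is driven in excitatory neurons of the postnatal forebrain. Those labelled IPMK WT came from Ipmk f/f male littermates of the same age, so both groups carry the floxed allele and only the IPMK cKO mice carry Cre. The mice of both groups were behaviourally naive. Each array held RNA of the right hippocampus of 1 mouse, with 2 mice per genotype, hybridized to an Affymetrix Mouse Gene 2.0 ST array. The whole tissue also holds interneurons, glia and vessels without Cre, and fewer cells of a type and less RNA per cell cannot be told apart in it.

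The values are log2 units after robust multi-array averaging (RMA), and array medians lay between 5.10 and 5.15. All 12 markers of hippocampal excitatory neurons had means of 6.81 or more, with Camk2a at 11.87 and the dentate gyrus gene Prox1 at 8.18. Ipmk itself was not lower under the IPMK cKO label. The set of 19 probes that covers the gene read 8.44 and 8.78 in the arrays labelled IPMK cKO, against 7.68 and 7.71 in those labelled IPMK WT. A set of 18 probes that carries the same symbol but lies outside the RefSeq gene read 6.97 and 6.43 in the arrays labelled IPMK cKO, against 5.78 and 5.52 in those labelled IPMK WT. The probe sets of the targeted gene thus read higher, not lower, under the IPMK cKO label, and every direction given here is that of the labels. The names of the arrays carry the word plus for both IPMK cKO arrays and minus for both IPMK WT arrays. This is the same split as in the sample titles, but names cannot test whether the labels are right. Where the probes lie relative to the deleted exons was not analysed here.

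The AMPK subunit genes and Stk11 differed little between the groups. In the mean, 6 of the 8 genes lay higher and 2 lower under the IPMK cKO label, where over all probe sets 48.4% lay higher and 51.6% lower, and Prkaa1, Prkaa2 and Prkag1, all close to 0, changed sign under another scaling of the arrays. limma called 0 of the 8 at an adjusted p under 0.05, as it did 0 of all probe sets (0.0%). At an unadjusted p under 0.05 it also gave 0 of the 8, against 2.86% of all probe sets, of which 0.979% were higher and 1.88% lower. The local pooled error (LPE) test, which the methods name for these arrays, called 0 of the 8 and 0.00592% of all probe sets at an adjusted p under 0.05. LPE and the methods' t-test gave 0 of the 8 at an unadjusted p under 0.05, against 1.14% and 3.55% of all probe sets. The median log2 fold change of the 8 was 0.03, beside −0.00462 over all probe sets.

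**Figure D1:**
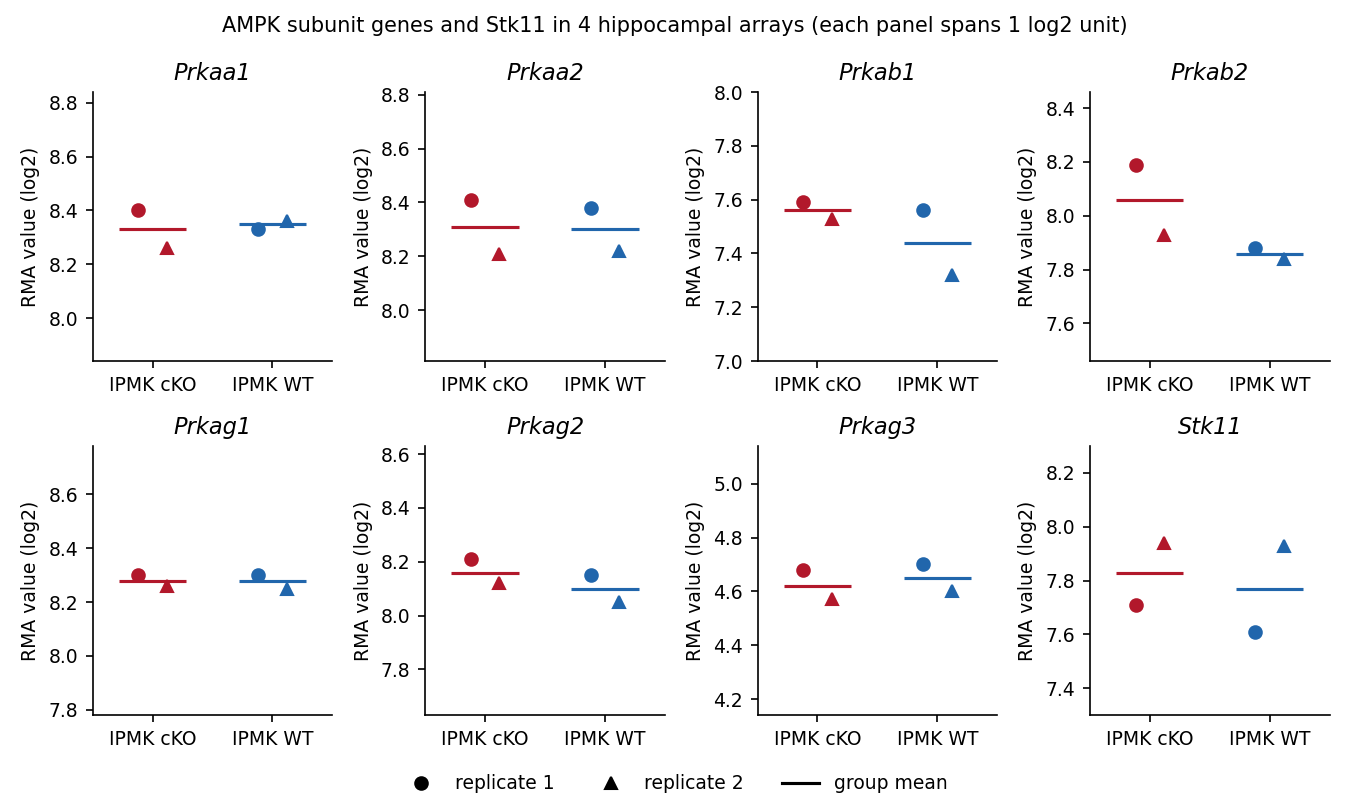
Log2 RMA value (vertical axis) of each of the 8 genes in the arrays labelled IPMK cKO (left) and IPMK WT (right), with replicate 1 as a circle, replicate 2 as a triangle and a line at the group mean. Each panel spans 1 log2 unit around the gene's mean. Only in Prkab2 do both IPMK cKO arrays lie above both IPMK WT arrays, and in Stk11 both replicate 2 arrays lie above both replicate 1 arrays.

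Prkaa1 encodes α1, the catalytic isoform found in most tissues. Its 19 probes span chromosome 15 between 5143861 and 5181899, plus strand, in the positions of the array annotation, which names no build and places each of the 8 sets over its gene. Prkaa1 read 8.40 and 8.26 in the arrays labelled IPMK cKO and 8.33 and 8.36 in those labelled IPMK WT, so the IPMK WT arrays lay between the IPMK cKO arrays. The log2 fold change was −0.02 (standard error 0.12, 95% confidence interval −0.32 to 0.29, limma adjusted p = 0.9999).

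Prkaa2 encodes α2, the other catalytic isoform, known for its abundance in muscle and its presence in neurons. Its 22 probes span chromosome 4 between 105029650 and 105109898, minus strand. Prkaa2 read 8.41 and 8.21 in the arrays labelled IPMK cKO and 8.38 and 8.22 in those labelled IPMK WT. The IPMK WT arrays lay between the IPMK cKO arrays, and in each group replicate 1 was the higher array. The log2 fold change was 0.01 (standard error 0.14, 95% confidence interval −0.34 to 0.35).

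The β subunit genes had the larger differences of the family. Prkab2 encodes β2, which anchors α and γ and binds glycogen, and is known as the main β isoform of skeletal muscle. Its 29 probes span chromosome 3 between 97658212 and 97673812, plus strand. Prkab2 read 8.19 and 7.93 in the arrays labelled IPMK cKO (8.06 ± 0.18, SD, n = 2), against 7.88 and 7.84 in those labelled IPMK WT (7.86 ± 0.03, SD, n = 2). Both IPMK cKO arrays lay above both IPMK WT arrays, the nearest pair by 0.05, while the IPMK cKO arrays themselves lay 0.26 apart. Such a separation upward was seen in 1 of the 8 genes and in 12.4% of all probe sets, and a separation in either direction in 1 of the 8 and 27.2% of all. With 2 arrays against 2, groups that do not overlap are therefore common.

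The log2 fold change of Prkab2 was 0.20 (standard error 0.14, 95% confidence interval −0.15 to 0.54), or 1.15-fold, with limma's adjusted p = 0.9999. It rested largely on replicate 1 of the arrays labelled IPMK cKO, without which it was 0.069. Without replicate 2 of that group it was 0.325. Of the 12286 probe sets that average 6 log2 units or more, 93.3% had a smaller absolute log2 fold change than Prkab2.

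Prkab1 encodes β1, the β isoform of most non-muscle tissues. Its 18 probes span chromosome 5 between 116013586 and 116024508, minus strand. Prkab1 read 7.59 and 7.53 in the arrays labelled IPMK cKO and 7.56 and 7.32 in those labelled IPMK WT. The groups overlapped, with 1 IPMK WT array, replicate 2, below the other 3 arrays. The log2 fold change was 0.12 (standard error 0.14, 95% confidence interval −0.22 to 0.46), and 0.005 without that array.

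Prkag1 encodes γ1, the nucleotide-binding isoform found in most tissues. Its 22 probes span chromosome 15 between 98812797 and 98831508, minus strand. Prkag1 read 8.30 and 8.26 in the arrays labelled IPMK cKO and 8.30 and 8.25 in those labelled IPMK WT, a range of 0.05 over all 4 arrays. The median range of probe sets with a mean of at least 6 was 0.236, so Prkag1 was a steady gene among them. Its log2 fold change was 0.01 (standard error 0.12, 95% confidence interval −0.29 to 0.30).

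Prkag2 encodes γ2, a γ isoform with a long amino-terminal extension in its longest form, in which human mutations cause a glycogen storage cardiomyopathy. Its 32 probes span chromosome 5 from 24862735 to 25100642 on the minus strand. The RefSeq promoter table lists 3 starts within or at the end of this span, while the RefSeq gene extends beyond it upstream, and a single probe set gives no separate level for long and short transcripts. It read 8.21 and 8.12 in the arrays labelled IPMK cKO and 8.15 and 8.05 in those labelled IPMK WT. The groups overlapped, and the log2 fold change was 0.06 (standard error 0.12, 95% confidence interval −0.24 to 0.37).

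Prkag3 encodes γ3, the isoform known for its restriction to fast skeletal muscle. Its 26 probes span chromosome 1 between 74738922 and 74749221, minus strand. Prkag3 read 4.68 and 4.57 in the arrays labelled IPMK cKO and 4.70 and 4.60 in those labelled IPMK WT, with overlapping groups. Its log2 fold change was −0.03 (standard error 0.12, 95% confidence interval −0.33 to 0.28). It was the member near the floor of the arrays: 12 genes of other organs, such as the liver gene Alb at 3.61 and the pancreatic gene Ins2 at 4.20, had means between 2.94 and 6.14 and a median of 4.32.

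Most of the 9 skeletal muscle genes read low as well, and 7 had means under 6, among them the fast myosins Myh1 at 3.14 and Myh4 at 3.36 and the muscle creatine kinase Ckm at 5.02. The exceptions were the actin gene Acta1 at 6.38 and Pygm, a glycogen phosphorylase also known from astrocytes, at 7.90. At the level of Prkag3, expression and background cannot be told apart, and its fold change carries little information.

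The promoters of a ubiquitous and a muscle-restricted γ gene are shown because Prkag1 had the narrowest range of the 8 genes over the arrays, while Prkag3 read near their floor. They are the 250 bases before the start that the RefSeq promoter table lists for the gene in the build GRCm38.p6, 5′ to 3′, with the dinucleotide CG in capitals, for Prkag1 at chr15:98831509-98831758 and Prkag3 at chr1:74748956-74749205, both on the minus strand. The RefSeq gene span of Prkag3 reaches further upstream, so its window lies inside that span, and the windows of Prkab1, Prkag2 and Stk11 likewise overlap the span of their gene.
Prkag1: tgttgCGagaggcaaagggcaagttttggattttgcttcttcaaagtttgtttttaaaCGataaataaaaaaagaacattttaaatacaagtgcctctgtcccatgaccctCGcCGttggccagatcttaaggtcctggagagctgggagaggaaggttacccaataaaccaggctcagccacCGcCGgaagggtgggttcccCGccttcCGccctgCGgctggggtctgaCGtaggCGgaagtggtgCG
Prkag3: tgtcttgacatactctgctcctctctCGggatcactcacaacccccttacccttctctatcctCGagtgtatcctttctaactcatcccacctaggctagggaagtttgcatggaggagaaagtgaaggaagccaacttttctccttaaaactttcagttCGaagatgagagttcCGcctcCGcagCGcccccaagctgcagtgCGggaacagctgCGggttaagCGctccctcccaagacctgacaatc

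The promoter of Prkag1 holds 12 CG dinucleotides and that of Prkag3 holds 9, and the median of 32851 promoters is 6. The other members were richer in CG, with 45 in Prkaa1, 24 each in Prkaa2, Prkab1 and Stk11 and 18 in Prkab2. The starts of Prkag2 hold 23, 4 and 34 from the first to the last along the gene. Over genes with a single listed start, 74.3% of the 3549 with at least 20 CG had a mean log2 value of at least 6, against 7.71% of the 5030 with at most 3. Prkag1 and Prkag3, with 12 and 9, fall in neither group, and the part of CG content in their levels was not tested. The TATA motif TATAAA, searched on both strands and present in 12.4% of all promoters of this length, was found in none of the 10 windows of the 8 genes. The same was true of the cAMP response element TGACGTCA, its own reverse complement, which 1.55% of all promoters hold.

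Stk11 encodes Lkb1, the tumour suppressor kinase that phosphorylates α. Its 23 probes span chromosome 10 between 80115803 and 80130682, plus strand. Stk11 read 7.71 and 7.94 in the arrays labelled IPMK cKO and 7.61 and 7.93 in those labelled IPMK WT. The groups overlapped, and the spread lay within them: replicate 2 was higher by 0.23 in the arrays labelled IPMK cKO and by 0.32 in those labelled IPMK WT. The log2 fold change was 0.06 (standard error 0.16, 95% confidence interval −0.35 to 0.47), and the direction turned without 1 array, becoming −0.06 when IPMK cKO replicate 2 was dropped and −0.10 when IPMK WT replicate 1 was dropped.

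The spread by replicate number was shared by other members and by cell type markers. In 5 of the 8 genes both replicate 1 arrays read above both replicate 2 arrays, and Stk11 was the 1 gene of the reverse order. Over all probe sets, 22.7% had the order of those 5 and 22.0% the order of Stk11. All 8 astrocyte markers had the order of Stk11. Their mean level was 9.08 and 9.56 in replicates 1 and 2 of the arrays labelled IPMK cKO and 9.02 and 9.48 in those of the arrays labelled IPMK WT. Of the 12 markers of excitatory neurons, 7 had the reverse order, with mean levels of 9.04 and 8.81 in the arrays labelled IPMK cKO and 8.96 and 8.88 in those labelled IPMK WT. The part of cell composition in the levels of Stk11 and the other genes was not tested.

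Markers of the choroid plexus, a tissue that adjoins the hippocampus, also set replicate 1 of the arrays labelled IPMK cKO apart. Each of the 7 was lower in the mean under the IPMK cKO label, and in each the groups overlapped. Their mean level was 7.35 and 8.13 in the arrays labelled IPMK cKO and 8.21 and 7.89 in those labelled IPMK WT, so replicate 1 of the arrays labelled IPMK cKO was lowest in these markers and highest in Prkab2. Among 8 endothelial and mural markers 7 were lower in the mean under the IPMK cKO label and 4 had both IPMK cKO arrays below both IPMK WT arrays, a pattern of 14.8% of all probe sets, with a median log2 fold change of −0.11. Their mean level was 7.30 and 7.34 in the arrays labelled IPMK cKO and 7.50 and 7.35 in those labelled IPMK WT. Among 8 interneuron markers 6 were lower, with a median of −0.10. The part of these marker differences in the value of Prkab2 was not tested.

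**Figure D2:**
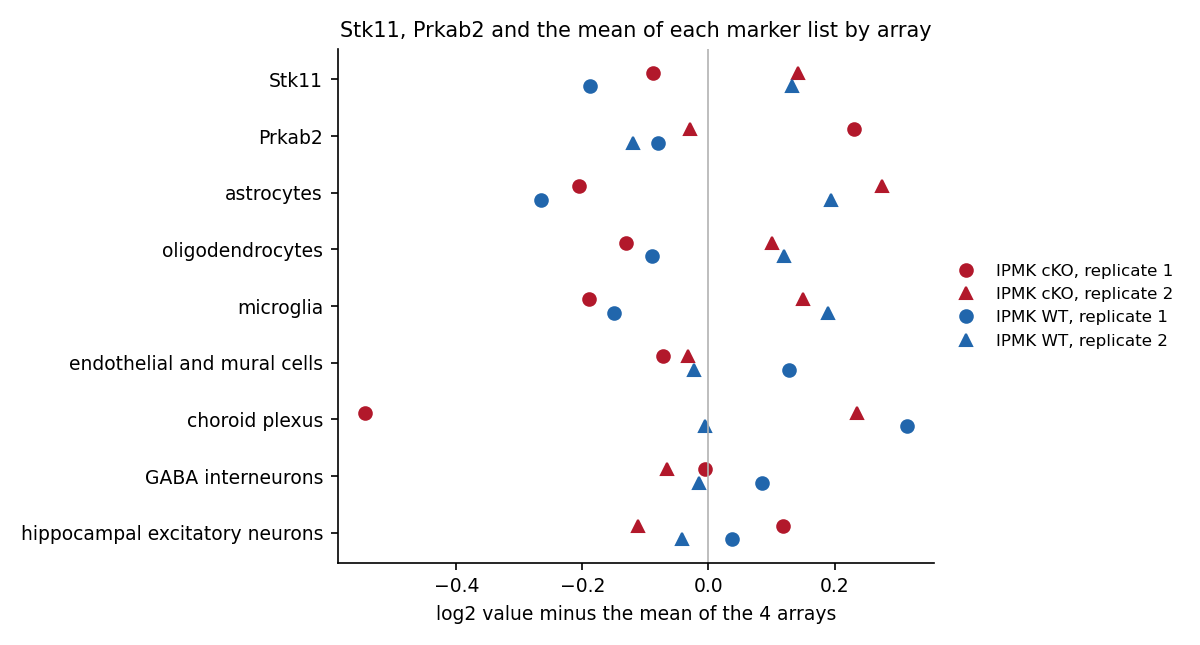
Log2 value minus the mean of the 4 arrays (horizontal axis) for Stk11, Prkab2 and the mean of each cell type marker list, in red for arrays labelled IPMK cKO and blue for IPMK WT, with replicate 1 as circles and replicate 2 as triangles. Stk11 and the astrocyte, oligodendrocyte and microglia lists have both replicate 2 arrays on the right, and the choroid plexus list has replicate 1 of IPMK cKO farthest to the left.

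The precision of these comparisons can be read from the intervals. In all 8 genes the 95% confidence interval stayed inside 1.5-fold up and down, which also held for 75.2% of all probe sets and for 87.8% of those with a mean of at least 6. The lowest lower bound was 0.785-fold, for Stk11, and the highest upper bound was 1.46-fold, for Prkab2. Differences beyond these bounds were outside limma's intervals of all 8 genes. Other members had narrower intervals, such as 0.821- to 1.23-fold for Prkag1. Differences within a gene's own interval were neither detected nor excluded with 2 arrays against 2. In comparison, the intervals of both Ipmk probe sets lay above 0, from 0.54 to 1.29 and from 0.52 to 1.58 on the log2 scale, at limma's adjusted p = 0.9999.

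**Figure D3:**
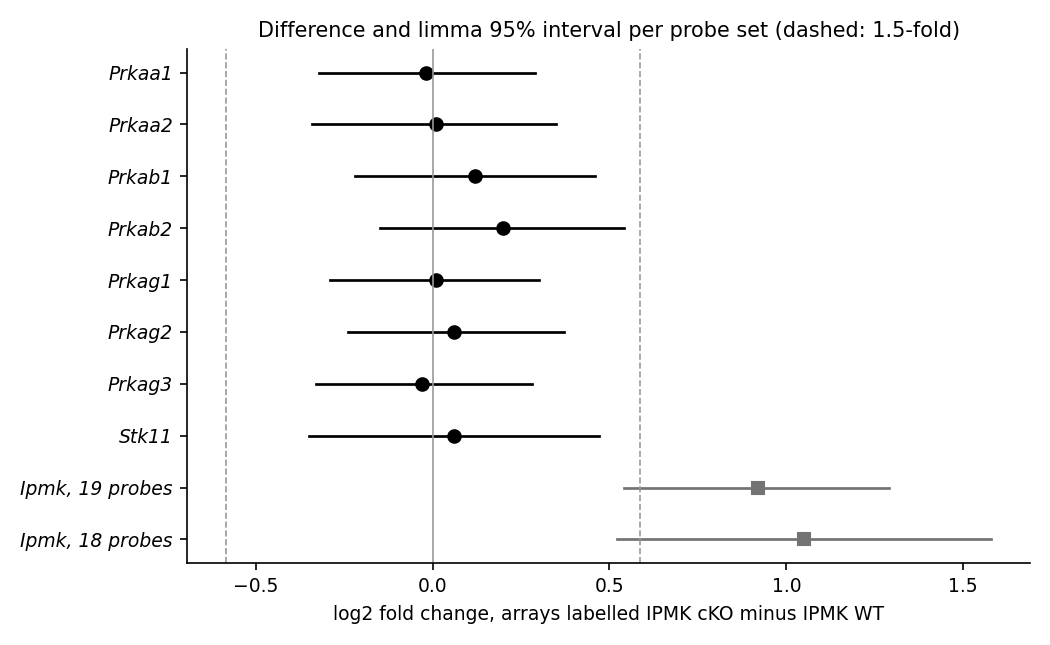
Log2 fold change, arrays labelled IPMK cKO minus IPMK WT (horizontal axis), with the 95% confidence interval of limma as a bar, for the 8 genes (black) and both Ipmk probe sets (grey). Dashed lines mark 1.5-fold either way; the 8 intervals lie between them and include 0.

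Whether the balance of isoforms differed was examined within each array, since the affinity of the probes cancels when the difference between a pair of isoforms is compared between groups. Levels of different probe sets are not amounts of RNA that can be ranked, and no isoform is called the more abundant here. Prkaa1 minus Prkaa2 was −0.01 and 0.05 in the arrays labelled IPMK cKO and −0.05 and 0.14 in those labelled IPMK WT, with overlapping groups. The α balance differed by −0.03 between the group means (exact two-sided permutation p = 1.0). Prkab1 minus Prkab2 was −0.60 and −0.40 in the arrays labelled IPMK cKO and −0.33 and −0.52 in those labelled IPMK WT. The β balance differed by −0.07 (exact two-sided permutation p = 0.667).

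Prkag1 minus Prkag2 was 0.09 and 0.15 in the arrays labelled IPMK cKO and 0.15 and 0.21 in those labelled IPMK WT. The groups met without overlapping, and the γ balance differed by −0.06 (exact two-sided permutation p = 0.333). After a second quantile normalization of the arrays the groups no longer lay apart (−0.058, exact two-sided permutation p = 0.667). In the values as deposited p was 0.333. With 2 arrays against 2 the latter is the smallest p that the test can give, so it cannot pass a threshold of 0.05. The same limit holds for all 3 comparisons of this kind, so none could have passed and these p-values decide nothing.

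**Figure D4:**
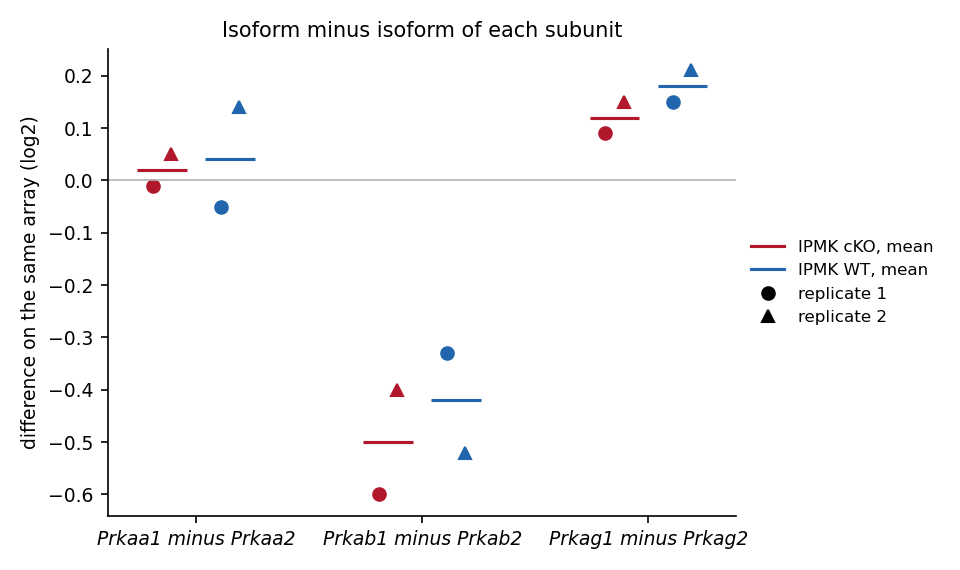
Log2 difference between a pair of isoforms on the same array (vertical axis) for the α, β and γ subunits, with arrays labelled IPMK cKO in red on the left and IPMK WT in blue on the right, replicate 1 as circles, replicate 2 as triangles and a line at the group mean. The groups overlap for α and β and meet at 0.15 for γ.

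The kinases above AMPK were read next. Stradb, a pseudokinase partner of Lkb1, had the lowest p of this group. It read 6.55 and 6.58 in the arrays labelled IPMK cKO and 6.27 and 6.35 in those labelled IPMK WT, so that the groups lay 0.20 apart. Its log2 fold change was 0.25 (standard error 0.12, 95% confidence interval −0.04 to 0.55, limma adjusted p = 0.9999 across all probe sets). Strada, the other pseudokinase, had a log2 fold change of −0.04, and Cab39, which encodes an MO25 scaffold, of −0.03. Cab39l, for the other MO25 form, read 8.75 and 9.43 in the arrays labelled IPMK cKO and 9.19 in both labelled IPMK WT, with the arrays labelled IPMK cKO on either side. The calcium-dependent kinase genes Camkk1 and Camkk2 both had a log2 fold change of 0.06. limma passed 0 of the 7 genes of this list at either an adjusted or an unadjusted p under 0.05, and the median log2 fold change was −0.02.

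The AMPK-related kinases, which Lkb1 also activates for the most part, had a median log2 fold change of 0.02 over 14 genes, with 9 higher and 5 lower means. Snrk, a member expressed in brain and heart, had the lowest p. It read 7.36 and 7.49 in the arrays labelled IPMK cKO and 7.21 and 7.29 in those labelled IPMK WT, a log2 fold change of 0.17 (standard error 0.12). Sik1, a salt-inducible kinase gene induced by neuronal activity, had 0.14 with overlapping groups. The brain-specific kinase genes Brsk1 and Brsk2, which act in neuronal polarity, had log2 fold changes of 0.04 and −0.01.

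Among 24 regulators of AMPK, Sesn2, a stress-induced sestrin gene known to promote AMPK activity, had the largest difference of the list and the most negative of the 98 pathway genes measured. It read 6.11 and 6.39 in the arrays labelled IPMK cKO and 6.53 and 6.54 in those labelled IPMK WT. Both IPMK cKO arrays lay below both IPMK WT arrays, by 0.14 at the nearest. The log2 fold change was −0.29 (standard error 0.14, 95% confidence interval −0.64 to 0.07, limma adjusted p = 0.9999 across all probe sets). Flcn, which encodes the lysosomal regulator folliculin, had a log2 fold change of 0.17. The median of the list was 0.05, and 0 of 24 passed at an unadjusted p under 0.05 in limma.

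The genes of AMPK targets also differed little. In fat metabolism, Mlycd, which encodes the enzyme that breaks down malonyl-CoA, had a log2 fold change of −0.20, and Acacb, for the acetyl-CoA carboxylase at mitochondria, of −0.11 at a mean of 5.14. In glucose metabolism, the muscle-type glycogen synthase gene Gys1 had 0.16 and the Rab regulator gene Tbc1d1 had 0.09. Among growth and autophagy targets, the autophagy initiators Ulk1 and Atg13 both had 0.13. The CREB coactivator gene Crtc2 had 0.13 and the mitochondrial transcription factor gene Tfam had 0.11. The 5 neuronal membrane targets ranged from −0.02 to 0.06, with Klc2, for a kinesin light chain, at 0.06 and the GABA-B receptor gene Gabbr1 at 0.02.

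The 8 pathway lists hold 98 measured genes. Of these, 61 lay higher and 37 lower in the mean under the IPMK cKO label, beside 48.4% higher and 51.6% lower of all probe sets, and the median log2 fold change was 0.02. For 91 of the 98, limma's 95% confidence interval stayed inside 1.5-fold. Both IPMK cKO arrays lay above both IPMK WT arrays for 13 and below them for 8, where over all probe sets these patterns made up 12.4% and 14.8%. Of the 98 genes, however, only 11 had a mean under 6. Among the 12286 probe sets with a mean of at least 6, the groups did not overlap in 2652, and 1615 of these lay above. More separations above than below were thus also seen among brighter probe sets in general. The higher and lower means were not compared at that level. At an adjusted p under 0.05 and at an unadjusted p under 0.05, limma passed 0 of the 98. The unadjusted count was 2 when IPMK cKO replicate 2 was dropped, and 1 among probe sets with a mean of at least 6. LPE also gave 0 at both, and the methods' t-test 0 and 4, the last beside 3.55% of all probe sets. Of the 99 genes listed, Cpt1b was not matched to a probe set here.

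**Figure D5:**
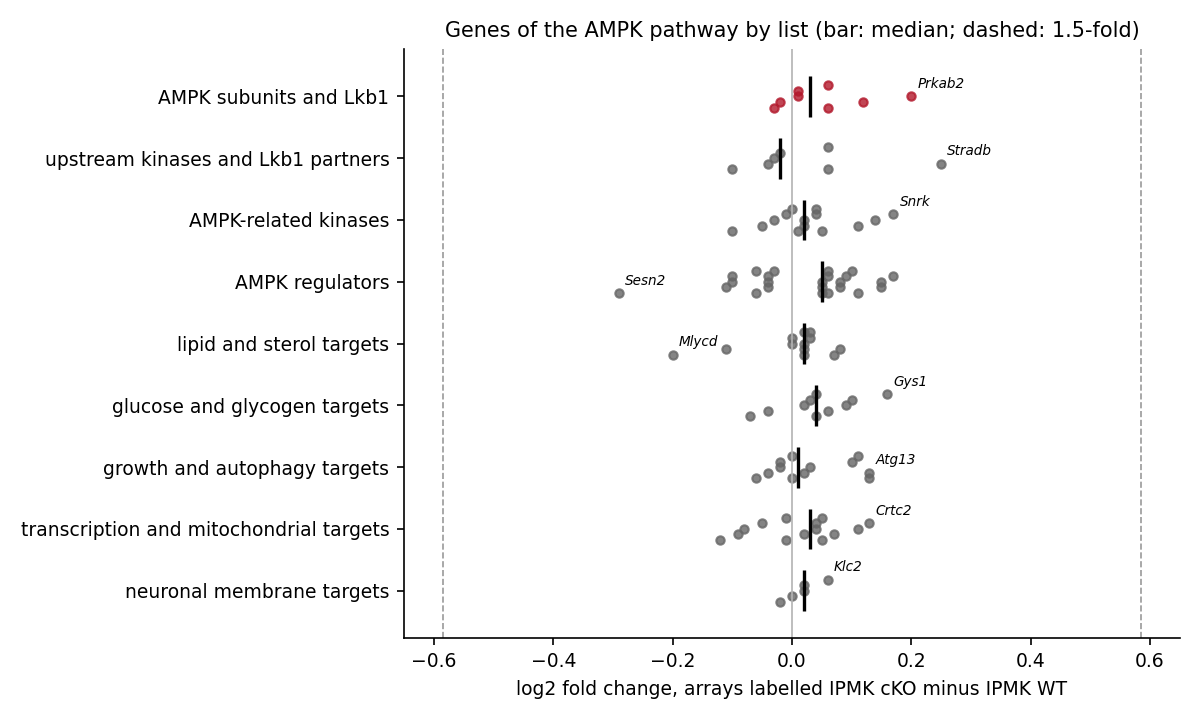
Log2 fold change, arrays labelled IPMK cKO minus IPMK WT (horizontal axis), of each gene in the 8 AMPK pathway lists (grey) and in the AMPK subunit and Stk11 list (red), with a bar at the median of each list and dashed lines at 1.5-fold. The gene with the lowest p is named in each list; all points lie inside 1.5-fold, from −0.29 for Sesn2 to 0.25 for Stradb.

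The genes whose values resembled those of the most variable members were described by the root mean square difference over 4 mean-centred arrays. Prkab2 and Stk11 had the widest ranges, 0.35 and 0.33. Nearest to Prkab2 among 5171 probe sets with a mean of at least 6 and a range not much narrower were Kcnab3, a potassium channel β subunit gene, at 0.0132, Slc1a6, a glutamate transporter gene, at 0.0164 and Zbed6, a zinc finger gene, at 0.0169. Kcnab3 read 6.45 and 6.19 in the arrays labelled IPMK cKO and 6.12 and 6.11 in those labelled IPMK WT. Nearest to Stk11 among 5500 were Dbx2, a homeobox gene, at 0.00653, Dpy19l4 at 0.00783 and Gm16210 at 0.00851. With 4 arrays such likeness is common: 78 probe sets lay within 0.05 of Prkab2 and 391 within 0.05 of Stk11.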

How the data were processed

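RNA from the right hippocampus of 4 mice was hybridized to 1 Affymetrix array each. The authors extracted the scans and computed gene-level log2 values by RMA in Affymetrix Expression Console, which subtracts background and quantile-normalizes; the deposited values were used as they stand. Both deposited tables hold the same values, and 4 further columns of per-array values were not used. Columns of the authors' own comparison (fold, LPE score, adjusted p-value) were left out.

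Group means were compared with limma 3.58.1 in R 4.3.3 (lmFit, eBayes, no block), adjusted by Benjamini-Hochberg over all 33793 probe sets. The methods name LPE, whose package was not at hand; it was rewritten with 100 bins and a span of 0.2 and serves as an alternative, as does the t-test that the methods give for other measurements. The code was tested on simulated data with independent noise and planted changes larger than those of the members. That test does not bear on differences as small as theirs. Arrays have no depth in counts, and their number limits the precision. The p-values of limma rest on a gene's spread between these mice, drawn towards a prior over all probe sets. Those of LPE rest on the spread of probe sets at a like level, and those of the t-test on the gene's own spread.

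The members and lists were chosen with earlier results of these data known. Named were the 8 members, Ipmk, in each pathway list the genes with an unadjusted limma p under 0.05 or, where fewer than 2 had one, the 2 of lowest p, markers that lead or oppose a list, and the 3 nearest probe sets to the 2 members of widest range. Strada, Cab39, Cab39l, Camkk2, Brsk1, Brsk2 and the markers given by level alone were named after their values were seen. Promoter sequences are from RefSeq, build GRCm38.p6, matched by symbol for 8 of 8 members. The array annotation does not name its build. Plots used Python 3.11.15 and matplotlib 3.10.9.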

Additional observations from a re-analysis of the deposited data

How the results depend on the processing

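With the replicate number as a block, limma called 0 of the 8 members and 0 of all probe sets, with 1502 probe sets at an unadjusted p under 0.05 against 966 without it. Without 1 array that count ranged from 795 to 1539, the highest when IPMK cKO replicate 1 was dropped. The labels do not say that a number marks a shared litter, and same-numbered deviations correlated at 0.244. LPE called 2 probe sets, neither of them a member. The members called stayed at 0, with an adjusted p of at least 0.978 over 127 member values. Of these, 79 keep the fold change by construction, and 12 of the 48 that could change turned their sign. The uncalled sign turned for Prkaa1 with arrays centred on their medians (0.004). A second quantile normalization turned it for Prkaa2 (−0.003) and Prkag1 (−0.017). When each array was dropped in turn, the single array remaining in its group was taken to vary as the others do, and log2 fold changes ranged from −0.087 to 0.054 for Prkaa1, −0.095 to 0.113 for Prkaa2, 0.005 to 0.240 for Prkab1, 0.069 to 0.325 for Prkab2, −0.018 to 0.029 for Prkag1, 0.010 to 0.116 for Prkag2, −0.079 to 0.028 for Prkag3 and −0.101 to 0.217 for Stk11. The isoform balance then ranged from −0.120 to 0.069 for α, −0.173 to 0.025 for β and −0.087 to −0.028 for γ. Without probe sets of a mean under 6, Prkag3 has no value. The cause of these shifts was not tested. Signal near background limits Prkag3, whose mean of 4.64 lay above but near the median of 4.32 of the genes of other organs. Over all probe sets, 29.1% average under 4 log2 units.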
